A study of Mus musculus with 9 samples.

Results

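The set described here consists of the nuclear genes for oxidative phosphorylation: every gene on the array whose only symbol begins with Nduf, Uqcr, Atp5 or Cox and a digit. The array named 94 such genes, and 84 of them passed a filter: 2 or more of the 9 arrays had to read the probe set at a log2 level of at least 5. They are 84 of the 10864 genes of the array that passed the same filter, and each gene is read by its probe set of highest mean level. Of the 84, 68 encode subunits and 16 encode assembly factors, proteins that help to build a complex and do not stay in it. Complex I contributed 32 subunits (6 of its catalytic core and 26 accessory), complex III 8, complex IV 11 and ATP synthase 17 (9 of the F1 head and the stalks, 8 of the part in the membrane). The assembly factors were 8 of complex I and 8 of complex IV.

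The samples were olfactory bulbs of CD1 mice, an outbred stock, with 1 individual and 1 array at each age: embryonic days 11 to 18 (E11 to E18), spaced daily, and the day of birth (P0). No animal carried a mutation or received a treatment according to the labels, and age was the only factor that the labels gave. RNA was amplified in 2 rounds before hybridisation, and the deposited values were log2 levels per probe set. With 1 animal at each age there is no replicate spread: the error given with each slope comes from the scatter of the 9 arrays around a straight line in age, in which P0 was set at day 19. At the earliest ages the bulb is only starting to form from the front of the telencephalon, and its cells are mostly dividing progenitors.

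Oxidative phosphorylation takes electrons from NADH at complex I and passes them through coenzyme Q, complex III and cytochrome c to oxygen at complex IV, while protons are pumped across the inner mitochondrial membrane. ATP synthase lets the protons flow back through a ring of c subunits in the membrane and makes ATP in its F1 head. Most of the subunits are encoded in the nucleus and a few in mitochondrial DNA. Several complex IV subunits and the c subunit of ATP synthase exist as isoforms from separate genes, some of them made mainly in muscle, testis or other tissues. Neurons depend on this pathway for most of their ATP.

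Sequences before the start of the 3 genes for the c subunit are shown because these genes encode the same mature protein and yet followed different courses. All are RefSeq sequences of GRCm38.p6, read on the minus strand, 5′ to 3′. Capitals mark 6 letter patterns searched on both strands: NRF1 (GCGCATGC), GABP (CCGGAAG), YY1 (AAGATGGC), ERRA (CAAGGTCA), NF-Y (CCAAT) and Sp1 (GGGCGG). The Atp5g1 sequence, chr11:96075695-96075831, covers bases 64 to 200 before the start and leaves out the bases nearer the start, which a longer gene model includes. The Atp5g2 sequence, chr15:102671048-102671247, covers bases 1 to 200 before the start. The Atp5g3 piece, chr2:73911360-73911389, is limited to 30 bases around its match, since its start lies inside a longer gene model.
Atp5g1: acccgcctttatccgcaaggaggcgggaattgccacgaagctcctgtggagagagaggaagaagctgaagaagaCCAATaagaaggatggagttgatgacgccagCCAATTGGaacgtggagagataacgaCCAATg
Atp5g2: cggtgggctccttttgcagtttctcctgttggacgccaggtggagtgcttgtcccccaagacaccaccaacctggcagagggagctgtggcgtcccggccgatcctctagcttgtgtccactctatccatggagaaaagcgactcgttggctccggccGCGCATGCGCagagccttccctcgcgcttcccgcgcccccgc
Atp5g3: ttgttacaaagTGACCTTGagcgtcttccc

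Atp5g1 held the NF-Y letters in several places and none of the other 5 patterns in the 250 bases before its start. Atp5g2 held the NRF1 letters on both strands in an overlapping run, beginning 42 and 40 bases before the start. Atp5g3 held the ERRA letters on the reverse strand, 52 bases before the start, and the NF-Y letters once, outside the printed piece. Windows of 250 bases before the start were found for 71 of the 84 genes, 58 of them subunits. Shares count genes with the letters in any of their windows, among the genes with a window. The NRF1 letters were found for 6 of the 58 subunits (10.3%), 5.4% of the tested genes and 2.6% of all 27025 genes with a window. The ERRA letters were in 5.2% of the subunits' windows against 1.1% of the tested genes', and the GABP letters were in 11 of the 58 windows against 16.0% of the tested genes'. The YY1 letters were found for 1.7% against 2.5%, the NF-Y letters for 37.9% against 40.8% and the Sp1 letters for 37.9% against 66.2%. Over all 27025 genes with a window the shares were 1.5% for ERRA, 7.8% for GABP, 1.8% for YY1, 37.5% for NF-Y and 35.4% for Sp1. Such a match describes letters in a window and is not a measured binding site.

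Subunit genes were mostly higher late in the course than early, by small amounts, and none fell. Of the 68 subunits, 22 rose with age by limma's test of the slope (Benjamini-Hochberg adjusted p under 0.05 over all 10864 genes), 0 fell and 46 did not pass. That is 32.4% of the subunits, and over all genes tested 25.2% rose and 21.9% fell. The slope was above 0 in 62 of the 68 subunits, and its median was 0.0413 log2 units per day, which makes a 1.26-fold change over the whole course. The median slope of all genes tested was 0.0020. The steps were small: a fitted change of at least 1 log2 unit (2-fold) was reached by 2 subunits, Atp5g1 and Ndufa5, and by 32.2% of all genes. The assembly factors differed from the subunits in their counts: 0 of 16 rose, 3 fell, and their median slope was 0.0055; this difference was not tested. With a quadratic term in the fit, 4.96% of all genes had a peak and 1.26% a dip between day 12 and day 18, and no member had either.

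**Figure D1:**
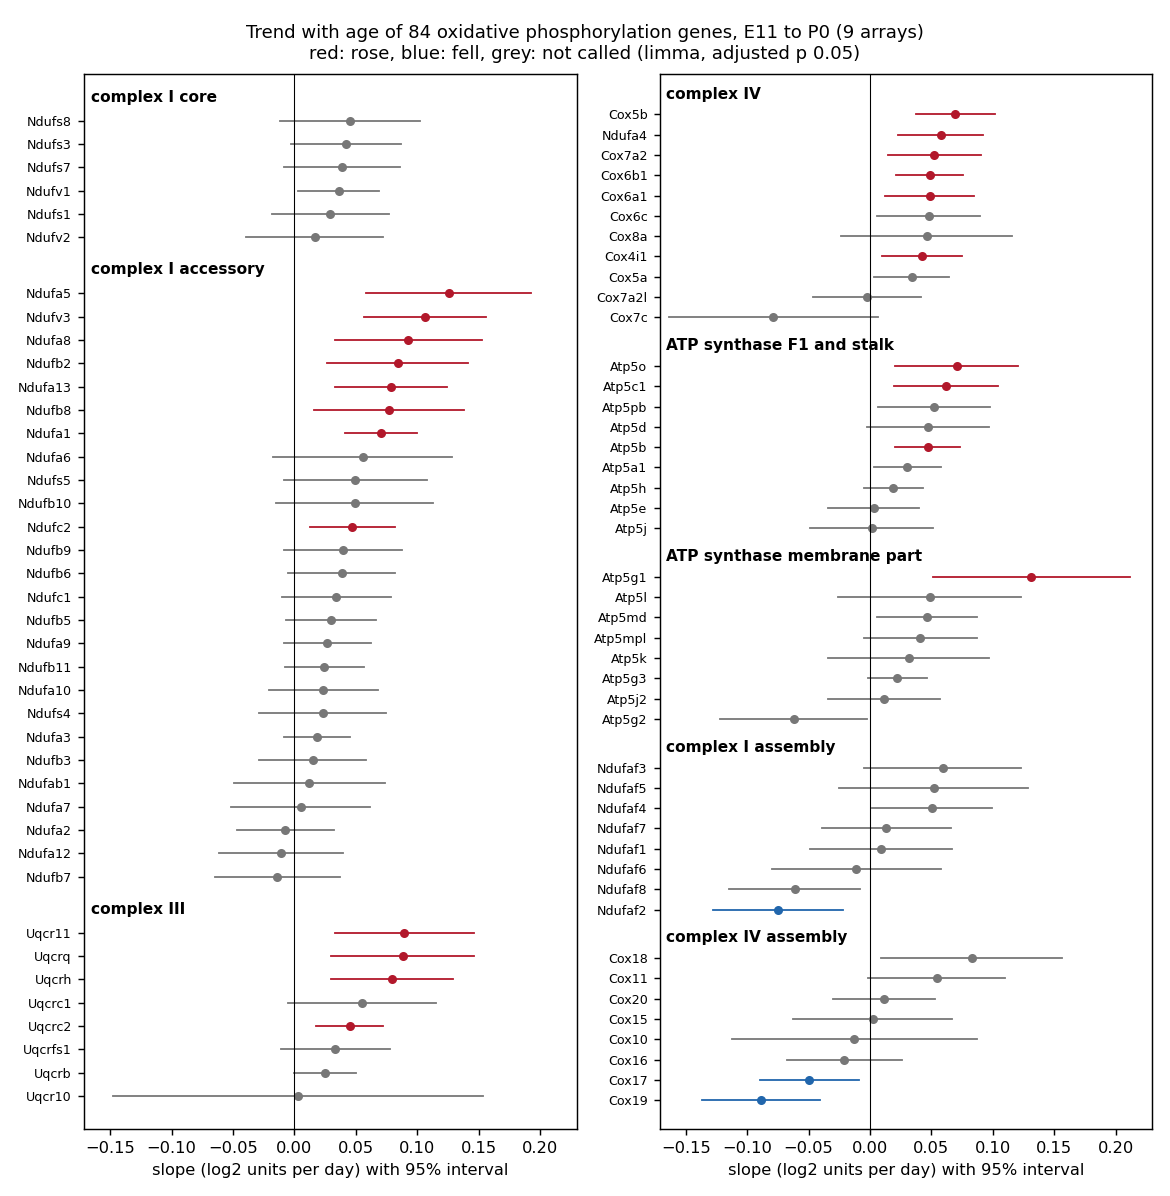
Slope of the log2 level with age for each of the 84 genes, by role, with its 95% interval from limma over 9 arrays. Red marks genes that rose, blue genes that fell and grey those not called; red appears in complex I accessory, complex III, complex IV and ATP synthase, and blue only among the assembly factors.

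These counts depend on the ages and on the scaling. Centring each array on its own median left 9 subunits rising (13.2%, against 22.0% of all genes) and put 1 (Atp5g2) among the falling, while with quantile normalisation 32 rose (47.1% against 25.7%). With E13 to P0 alone, 3 subunits rose (4.4% against 14.0%). The arrays of E12, E14 and E17 stood low for the subunits: 58, 58 and 63 of the 68 lay under their own fitted line there, with median distances of -0.117, -0.109 and -0.165 log2 units, and 59.4%, 59.7% and 54.9% of all genes did. Without those 3 arrays, an alternative added after the values were seen, 9 subunits rose (13.2% against 16.2%). Leaving out E12 alone left 11 (16.2% against 21.1%), and so did leaving out P0 alone (16.2% against 22.9%). The share of subunits that rose was above that of all genes in 15 of the 21 other settings and below it in 6, those with median centring, E13 to P0 alone, the 3 arrays left out, E12 left out, P0 left out and an exact rank correlation.

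From one age to the next most subunits moved in the same direction at most steps, down and up in turn until E15. From E11 to E12, 57 of the 68 were lower, by a median of 0.17 log2 units. From E12 to E13, 62 were higher. From E13 to E14, 54 were lower, and from E14 to E15, 61 were higher, by a median of 0.29. The step from E15 to E16 was mixed, with 40 lower and 28 higher and a median of -0.0268. From E16 to E17, 58 were lower again, and both later steps were upward for 56 and 54 of the 68. In 41 of the 68 the lowest array was E12, and in 35 the highest was P0. The median over all genes followed the same turns at a smaller size up to E15, from -0.0527 for E11 to E12 to 0.105 for E14 to E15. The 3′ to 5′ difference of the Gapdh control probe sets, a measure of RNA quality, was 1.77 at E12, 2.12 at E14 and 2.07 at E17 and ran from 1.55 to 2.12 over the 9 arrays. That of the actin control was 1.51, 1.62 and 1.71 on the same arrays and ran from 1.48 to 1.90, with its highest values at E18 and E15. Their part in the turns was not tested. With 1 animal at each age, age, animal and array cannot be told apart in a single step.

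**Figure D2:**
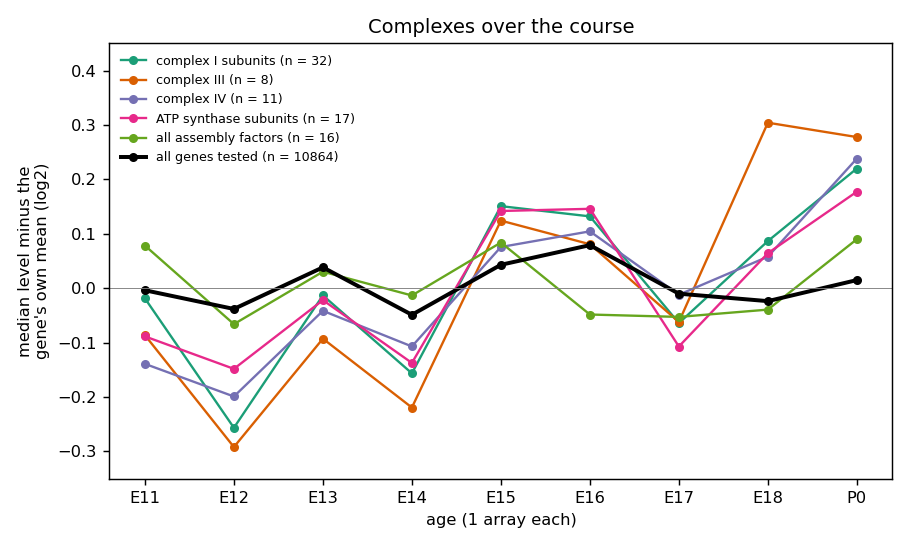
Median over the genes of each complex of the log2 level minus the gene's own mean, by age, with 1 array an age. In all 4 complexes E12 is the lowest array, E14 is below E13 and E15, and E17 is below E16 and E18. In complexes III and IV E17 is above E11 and E13. All 4 end above 0 at P0, while all genes tested stay near 0 and the assembly factors show no upward course.

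**Figure D3:**
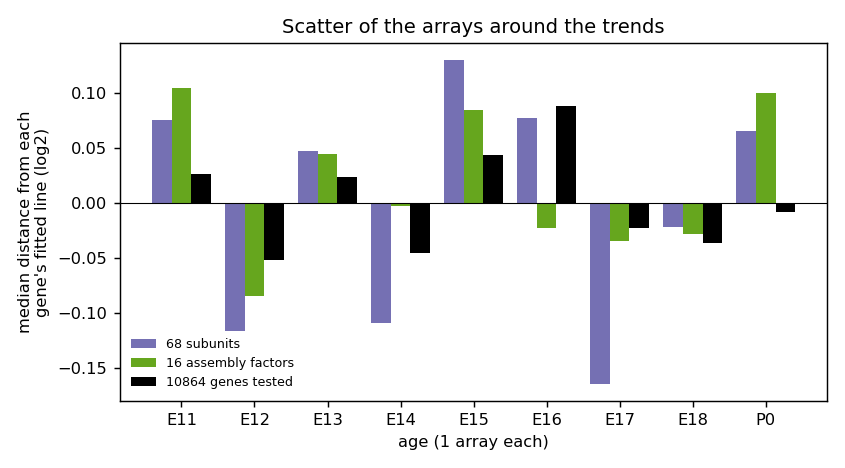
Median distance of the subunits, the assembly factors and all genes tested from each gene's own fitted line, in log2 units, on each array. The subunits reach -0.165 at E17 and 0.130 at E15, further from 0 than all genes on those arrays.

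In complex I, where electrons enter the chain, 8 of 26 accessory subunits rose and 0 of 6 core subunits did. Of all 32 subunits 25.0% rose, near the 25.2% of all genes tested. The core, which holds the flavin and the iron-sulfur clusters, had slopes from 0.0167 (Ndufv2) to 0.0456 (Ndufs8), all above 0, with adjusted p from 0.0701 to 0.615. The median slope was 0.0374 in the core and 0.0364 in the accessory subunits, so the medians were close while the calls were not. The difference between these counts was not tested.

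Ndufa5, an accessory subunit of the arm that faces the matrix, had the steepest rise in complex I. Its log2 level was 12.36 at E11, 12.16 at E12, 12.84 at E13, 12.75 at E14, 13.34 at E15, 13.30 at E16, 12.99 at E17, 13.16 at E18 and 13.28 at P0. The E11 and E12 arrays were the lowest, and every array from E15 on was above those before it, with E17 the lowest of the later ones. The slope was 0.126 ± 0.0302 log2 units per day (SE, 9 arrays; limma adjusted p = 0.0066), a fitted 2.01-fold change. A second probe set of the gene had a slope of 0.151. The call of Ndufa5 was lost with E13 to P0 alone (slope 0.0633, limma adjusted p = 0.201) and by the exact rank correlation (adjusted p = 0.0909).

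Ndufv3, an accessory subunit bound to the flavoprotein at the tip of the arm, was 11.04 at E11, 11.27 at E12, 11.37 at E13, 11.15 at E14, 11.81 at E15, 11.76 at E16, 11.56 at E17, 11.77 at E18 and 12.01 at P0. The 4 arrays up to E14 were all below the 5 later ones. Its slope was 0.107 ± 0.0225 (SE; limma adjusted p = 0.0034), and the call was lost only with E13 to P0 alone (adjusted p = 0.055). Ndufa8, which carries paired cysteine motifs and is oxidised in the intermembrane space, was 11.01 at E11, 10.95 at E12, 11.47 at E13, 11.36 at E14, 11.91 at E15, 11.71 at E16, 11.53 at E17, 11.72 at E18 and 11.70 at P0. Again E11 and E12 were lowest, and the values from E15 to P0 showed no further climb. Its slope was 0.0928 ± 0.0269 (SE; limma adjusted p = 0.0167), with adjusted p = 0.0767 without E11 and 0.0553 without E12.

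The other accessory subunits that rose were Ndufb2 (slope 0.0843), Ndufa13 (0.0786), Ndufb8 (0.0768), Ndufa1 (0.0708) and Ndufc2 (0.0471). Ndufa13, known also as GRIM-19, and Ndufa1, a small X-linked membrane subunit, lie in different parts of the complex. Ndufa1 was 13.64 at E11, 13.54 at E12, 13.77 at E13, 13.73 at E14, 13.99 at E15, 14.01 at E16, 13.90 at E17, 14.09 at E18 and 14.15 at P0. It is named after its values were seen, because it and Cox5b were the only members called the same way under all 20 other settings chosen at the start; its limma adjusted p was 0.0017. Ndufc2, the complex I member with the highest mean level, was 13.66 at E11, 13.70 at E12, 13.93 at E13, 13.92 at E14, 14.04 at E15, 14.18 at E16, 14.03 at E17, 13.91 at E18 and 14.10 at P0. It reached its later range by E13, and its call (limma adjusted p = 0.0305) was lost without E11 (0.142), E12 (0.0885) or P0 (0.0661). The call was also lost with the mean of the passing probe sets (0.207) and without probe sets ending in _x_at or _s_at (0.298). Its other passing probe sets had slopes of 0.0200 and 0.0418. Calls of Ndufb2 and Ndufb8 were also lost without E12 (adjusted p = 0.0699 and 0.121) and without P0 (0.0704 and 0.193), and that of Ndufb8 without E11 (0.061), E14 (0.0542) or E16 (0.0572). With the mean of the passing probe sets Ndufb2 was not called (0.0890), and its other passing probe sets had slopes of 0.0776 and -0.0169.

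The remaining 18 accessory subunits did not pass. Their slopes ran from -0.0138 for Ndufb7 to 0.0558 for Ndufa6, and those of Ndufb7, Ndufa12 and Ndufa2 were below 0. Ndufab1, the mitochondrial acyl carrier protein that also serves fatty acid synthesis, had a slope of 0.0123 (limma adjusted p = 0.743). Ndufs4, an accessory subunit whose loss causes Leigh syndrome in people, had a slope of 0.0231 (adjusted p = 0.441). Ndufb1 and Ndufb4 missed the filter, with highest readings of 4.37 and 2.08.

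In complex III, which passes electrons from coenzyme Q to cytochrome c, 4 of 8 subunits rose and all 8 slopes were above 0. Its median slope, a 1.32-fold change over the course, was the highest of the 4 complexes. The small subunits Uqcr11, Uqcrq and Uqcrh had the steepest rises, followed by Uqcrc2, a core protein of the matrix side, with 0.0450 ± 0.0124 (SE; limma adjusted p = 0.0133, and 0.0734 without P0). Uqcrfs1, the Rieske iron-sulfur protein, did not pass (slope 0.0335, adjusted p = 0.191), and neither did Uqcrc1 (0.0550, adjusted p = 0.119). With median centring the calls of Uqcrc2 (limma adjusted p = 0.101) and Uqcrh (0.0523) were lost, and those of Uqcr11 and Uqcrq were kept.

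Uqcr11 was 11.04 at E11, 10.81 at E12, 11.23 at E13, 10.92 at E14, 11.52 at E15, 11.51 at E16, 11.18 at E17, 11.61 at E18 and 11.67 at P0. Uqcrq was 10.86 at E11, 10.45 at E12, 10.85 at E13, 10.75 at E14, 11.32 at E15, 11.29 at E16, 11.03 at E17, 11.31 at E18 and 11.32 at P0. In both, the arrays up to E14 were below those from E15 on, except that Uqcr11 at E13 was above E17. The slopes were 0.0896 ± 0.0255 (SE; limma adjusted p = 0.0155) and 0.0881 ± 0.0263 (adjusted p = 0.019). Without E12 both calls were lost (adjusted p = 0.0514 for Uqcr11 and 0.0589 for Uqcrq), and without P0 that of Uqcr11 was too (0.0556).

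Uqcrh, the acidic hinge protein that contacts cytochrome c, was 11.85 at E11, 11.57 at E12, 11.53 at E13, 11.61 at E14, 11.84 at E15, 11.91 at E16, 11.84 at E17, 12.17 at E18 and 12.36 at P0. Its rise was late: the E18 and P0 arrays stood above all others and E11 lay in the middle of the range. The slope was 0.0795 ± 0.0225 (SE; limma adjusted p = 0.015, and 0.0902 without P0), and another probe set of the gene had 0.028. Uqcrb, the member of complex III with the highest mean level, was 14.51 at E11, 14.43 at E12, 14.46 at E13, 14.50 at E14, 14.67 at E15, 14.51 at E16, 14.52 at E17, 14.61 at E18 and 14.71 at P0. Its arrays lay close together, and it did not pass (slope 0.0248, adjusted p = 0.0943). Uqcr10 varied most between arrays, from 6.55 at E14 to 8.24 at E11, without a call (slope 0.0029 ± 0.0681, SE).

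In complex IV, cytochrome c oxidase, 6 of 11 subunits rose (54.5%, against 25.2% of all genes tested): Cox5b, Ndufa4, Cox7a2, Cox6b1, Cox6a1 and Cox4i1. All of its catalytic subunits are encoded in mitochondrial DNA and none of them was among the members. The median slope was 0.0476. Of the 6, only Cox5b kept its call with median centring (limma adjusted p = 0.0529 to 0.192 for the others). With E13 to P0 alone the others were again not called (0.0727 to 0.266). Cox6c, Cox5a and Cox8a had slopes of 0.0476, 0.0340 and 0.0462 and did not pass (adjusted p = 0.0592, 0.0644 and 0.252).

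Cox5b, a zinc-binding subunit on the matrix side, was 13.75 at E11, 13.50 at E12, 13.86 at E13, 13.83 at E14, 13.91 at E15, 13.96 at E16, 13.94 at E17, 14.12 at E18 and 14.25 at P0. E12 was lowest, the arrays from E13 to E17 lay between 13.83 and 13.96, and E18 and P0 were highest. The slope was 0.0695 ± 0.0144 (SE; limma adjusted p = 0.0031), a fitted 1.47-fold change. Ndufa4, named for complex I and now counted with complex IV, was 11.19 at E11, 11.31 at E12, 11.40 at E13, 11.38 at E14, 11.54 at E15, 11.56 at E16, 11.46 at E17, 11.52 at E18 and 11.81 at P0. E11 was its lowest array and P0 its highest. The slope was 0.0574 ± 0.0156 (SE; limma adjusted p = 0.0122, 0.0503 without E11 and 0.0724 without P0).

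Cox6b1, the complex IV member with the highest mean level, was 14.08 at E11, 13.99 at E12, 14.09 at E13, 14.06 at E14, 14.30 at E15, 14.34 at E16, 14.25 at E17, 14.28 at E18 and 14.44 at P0. The 4 arrays up to E14 were close to each other and all below the later ones. The slope was 0.0488 ± 0.0123 (SE; limma adjusted p = 0.0085). Cox7c had a slope of -0.079 ± 0.0384 (SE; adjusted p = 0.116), with 8.27 at E11 and 6.92 to 7.72 on the other arrays.

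In ATP synthase 4 of 17 subunits rose (23.5%, near the 25.2% of all genes tested). They were Atp5o, Atp5c1 and Atp5b of the F1 head and stalks, and Atp5g1 of the membrane part. Atp5o (OSCP), which links the head to the outer stalk, was 11.93 at E11, 11.72 at E12, 12.08 at E13, 11.90 at E14, 12.29 at E15, 11.91 at E16, 12.04 at E17, 12.39 at E18 and 12.50 at P0. E18 and P0 were the highest and E12 the lowest, with the arrays between in no order. The slope was 0.0704 ± 0.0226 (SE; limma adjusted p = 0.0263), and the call was lost without E12 (0.0792), E18 (0.0725) or P0 (0.124).

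Atp5c1, the rotating γ subunit, was 13.47 at E11, 13.23 at E12, 13.54 at E13, 13.35 at E14, 13.68 at E15, 13.60 at E16, 13.46 at E17, 13.88 at E18 and 13.89 at P0. The slope was 0.0618 ± 0.0191 (SE; limma adjusted p = 0.0223), and it was lost without E12 (0.0715), E18 (0.0684) or P0 (0.0956). Its direction rests on the probe set: another probe set, with a mean level of 6.75, had a slope of -0.0824, and the mean of both had -0.0103. Atp5b, the catalytic β subunit, had the slope 0.0470 ± 0.0119 (SE; limma adjusted p = 0.0088) and ran from 12.91 at E11 to 13.24 at P0 with its highest array at E18 (13.31). Atp5h, a stator subunit with the highest mean level in the complex, was 14.25 at E11, 14.19 at E12, 14.15 at E13, 14.20 at E14, 14.32 at E15, 14.35 at E16, 14.22 at E17, 14.30 at E18 and 14.38 at P0, and it did not pass (slope 0.0189, adjusted p = 0.180). Atp5e, the ε subunit, and Atp5j, coupling factor 6, had slopes near 0 (0.0029 and 0.0013).

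The 3 genes for the c subunit followed 3 different courses. Atp5g1 was 10.34 at E11, 10.19 at E12, 10.45 at E13, 10.50 at E14, 11.27 at E15, 11.32 at E16, 10.58 at E17, 11.09 at E18 and 11.36 at P0. All arrays up to E14 were below all later ones, and E17 was close to the early group. Its slope of 0.131 ± 0.0362 (SE; limma adjusted p = 0.0132) was the steepest of all members, and P0 was 2.03-fold above E11. The call was lost with E13 to P0 alone (slope 0.115, adjusted p = 0.152).

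Atp5g2 went the other way. It was 11.48 at E11, 10.95 at E12, 10.93 at E13, 10.67 at E14, 10.96 at E15, 10.70 at E16, 10.53 at E17, 10.86 at E18 and 10.80 at P0. E11 stood above all other arrays, which lay between 10.53 and 10.96. Its slope of -0.0622 ± 0.0270 (SE) did not pass (limma adjusted p = 0.0811), and E11 was 1.60-fold above P0. A second probe set of the gene had a slope of -0.0755.

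Atp5g3 was 13.99 at E11, 13.97 at E12, 14.08 at E13, 13.99 at E14, 14.15 at E15, 14.17 at E16, 14.05 at E17, 14.12 at E18 and 14.19 at P0. It was nearly level, with a slope of 0.0223 ± 0.0109 (SE; limma adjusted p = 0.116). Slopes of the differences between genes were tested by an exact permutation of the 9 ages, two-sided, adjusted over the 4 isoform pairs in which both genes passed the filter, of 11 listed; the smallest p possible was 5.51e-06. Atp5g1 gained on Atp5g2 by 0.194 ± 0.0399 log2 units per day (SE; exact p = 0.0022, adjusted p = 0.0089). The difference between their probe sets went from -1.14 at E11 to 0.56 at P0, a shift that can be read within the pair while the level of one probe set cannot be set against that of another. Atp5g1 gained on Atp5g3 by 0.109 ± 0.0342 (exact p = 0.0232, adjusted p = 0.031), and Atp5g2 lost against Atp5g3, with a slope of -0.0845 ± 0.0268 (exact p = 0.0076, adjusted p = 0.0151). All 3 calls were lost without E11 (adjusted p = 0.0567, 0.0832 and 0.0832) and with E13 to P0 alone, and that of Atp5g1 against Atp5g3 also without E12 (0.0716), E13 (0.0565), E14 (0.0588) or P0 (0.0845).

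**Figure D4:**
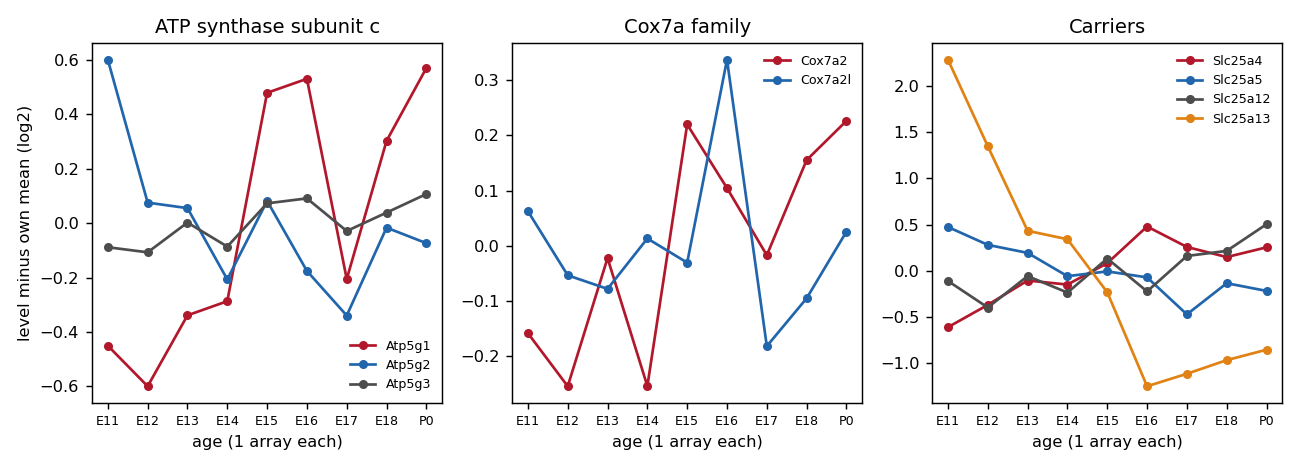
Log2 level minus the gene's own mean at each age, 1 array an age, for the 3 c-subunit genes, for Cox7a2 and Cox7a2l, and for 4 carriers. Atp5g1 is above its mean at P0 and Atp5g2 is highest at E11, Slc25a4 and Slc25a5 run in opposite directions, and Slc25a13 is highest at E11.

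The complex IV isoforms known from other tissues read below a log2 level of 5 at every age. Cox6a2, Cox7a1 and Cox8b, forms of heart and skeletal muscle, had highest readings of 2.19, 3.995 and 2.65. The testis forms Cox6b2, Cox7b2 and Cox8c had 4.71, 2.46 and 1.77. Cox4i2, a form of lung, and Ndufa4l2, a hypoxia-induced relative of Ndufa4 that marks pericytes, had 2.34 and 2.27. All 8 missed the filter, so no slope is given, and a low reading is not proof that a transcript was absent. Other pericyte genes did change: 7 of the 9 tested of a list of 11 rose and 1 fell, while 25.2% of all genes tested rose and 21.9% fell. Of 13 skeletal and heart muscle markers, 11 missed the filter and 2 rose: Acta1, from 4.73 at E11 to 6.22 at P0 (limma adjusted p = 0.0114), and Myh8, from 3.18 to 6.45 (adjusted p = 0.000958). Both read below a log2 level of 5 at E11 and passed the filter through later arrays. Their slopes thus rest in part on readings under the filter level. The summed level of all 13 ran from 6.72 to 7.83.

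Widely expressed partners of several of these isoforms passed the filter. Cox4i1, which Cox4i2 can replace, was 13.67 at E11, 13.59 at E12, 13.74 at E13, 13.64 at E14, 13.92 at E15, 13.88 at E16, 13.74 at E17, 13.83 at E18 and 14.07 at P0. Cox6a1 was 13.56 at E11, 13.42 at E12, 13.68 at E13, 13.54 at E14, 13.89 at E15, 13.81 at E16, 13.63 at E17, 13.80 at E18 and 13.96 at P0. In both, P0 was the highest array and E12 the lowest, and the early and late arrays overlapped. The slopes were 0.0423 ± 0.0147 (SE; limma adjusted p = 0.0359) and 0.0485 ± 0.0164 (adjusted p = 0.0326). Both calls were lost without E11 (0.0601 for Cox4i1, 0.0583 for Cox6a1), E12 (0.0968 and 0.0994) or P0 (0.18 and 0.126), and that of Cox4i1 without E14 (0.0515) and of Cox6a1 without E18 (0.0523). Cox8a was 7.09 at E11, 6.63 at E12, 6.89 at E13, 6.66 at E14, 6.98 at E15, 6.81 at E16, 6.80 at E17, 7.24 at E18 and 7.34 at P0, without a call.

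Cox7a2 was 13.53 at E11, 13.44 at E12, 13.67 at E13, 13.44 at E14, 13.91 at E15, 13.80 at E16, 13.67 at E17, 13.85 at E18 and 13.92 at P0. Cox7a2l, a relative that joins complexes III and IV into supercomplexes, was 12.60 at E11, 12.48 at E12, 12.46 at E13, 12.55 at E14, 12.50 at E15, 12.87 at E16, 12.35 at E17, 12.44 at E18 and 12.56 at P0. Cox7a2 rose (0.0522 ± 0.0170, SE; limma adjusted p = 0.0279) and Cox7a2l was level apart from E16 (-0.0026 ± 0.0198, adjusted p = 0.927). The call of Cox7a2 was lost without E11 (0.0548), E12 (0.0816), E18 (0.0582) or P0 (0.0857). The slope of their difference, 0.0548 ± 0.0234 (SE), missed the threshold (exact permutation p = 0.0585, adjusted p = 0.0585). It passed without E15 (adjusted p = 0.0458), without E16 (0.0323) and with the mean of the passing probe sets (0.0157).

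Among the 16 assembly factors 3 fell (18.8%, against 21.9% of all genes tested). Cox19 and Cox17, small proteins of the intermembrane space that serve copper delivery to complex IV, are both of this group. Cox19 was 10.54 at E11, 10.24 at E12, 10.29 at E13, 10.02 at E14, 10.11 at E15, 9.87 at E16, 9.66 at E17, 9.74 at E18 and 9.93 at P0. All arrays up to E15 were above all later ones. The slope was -0.089 ± 0.0217 (SE; limma adjusted p = 0.007), and E11 was 1.52-fold above P0. Cox17, the copper chaperone, was 11.80 at E11, 11.58 at E12, 11.49 at E13, 11.55 at E14, 11.58 at E15, 11.17 at E16, 11.41 at E17, 11.34 at E18 and 11.37 at P0. Its slope was -0.0497 ± 0.0181 (SE; adjusted p = 0.0443), a call lost when any array other than that of E16 was left out (adjusted p = 0.0517 to 0.195).

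Ndufaf2, which binds a late intermediate of complex I, was 9.53 at E11, 9.62 at E12, 9.93 at E13, 9.72 at E14, 9.58 at E15, 9.44 at E16, 9.36 at E17, 9.18 at E18 and 9.09 at P0. It was highest at E13 and was lower on every later array than on the one before. The slope was -0.0751 ± 0.0239 (SE; limma adjusted p = 0.0252), lost without E18 (0.0688) or P0 (0.104). Ndufaf8 had a slope of -0.0615 (adjusted p = 0.0565) and Cox18, an insertase for a mitochondrially encoded subunit, 0.0827 (adjusted p = 0.0623). Cox10, Cox15 and Cox11, which make heme A or deliver copper, had slopes of -0.0128, 0.0020 and 0.0541 and did not pass. Of 26 tested assembly factors with other names, 3 rose (Surf1 by 0.0981, Sco2 by 0.133 and Dmac2l by 0.0808 log2 units per day) and 3 fell (Sco1 with a slope of -0.130, Nubpl with -0.133 and Acad9 with -0.0951). Sco1 and Sco2, both copper proteins of complex IV assembly, were thus called in opposite directions. Among these 26 the shares called were below those of all genes tested, of which 25.2% rose and 21.9% fell. Single arrays ended the calls of Surf1 (without E12, E18 or P0, adjusted p = 0.0639 to 0.0741), Dmac2l (without E12, E18 or P0, 0.0544 to 0.0889), Sco1 (without E11, 0.0849) and Acad9 (without E11, 0.0797).

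The rest of the pathway gave mixed counts, while 25.2% of all genes tested rose and 21.9% fell. Complex II, which feeds electrons from succinate, had 0 of 4 subunits called, with slopes from -0.0146 (Sdhc) to 0.0118 (Sdhb). Cycs, cytochrome c, rose with 0.0376 ± 0.0127 (SE; limma adjusted p = 0.0329), a call lost without E11, E12, E13, E17 or P0 (0.0571 to 0.1) and with the mean of the passing probe sets (0.0648), and its testis form Cyct missed the filter. In the citrate cycle 3 of 16 genes rose (Idh3a 0.0881, Pdhb 0.0634 and Mdh2 0.0430) and 0 fell. The call of Mdh2 was lost without E11, E12, E16, E18 or P0 (adjusted p = 0.0503 to 0.111), that of Idh3a without P0 (0.0584) and that of Pdhb with the mean of the passing probe sets (0.581). In coenzyme Q synthesis 1 of 11 rose (Coq10a, 0.145) and 2 fell (Pdss2, -0.0971, and Coq6, -0.0711). Each of these 3 calls was lost without some single array, that of Coq10a without E11, E12, E17 or P0 (0.0507 to 0.113), that of Coq6 without E11, E17 or P0 (0.0505 to 0.127) and that of Pdss2 without any 1 array of E11 to E17 (0.0544 to 0.172). The single mitochondrially encoded subunit named on the array, ND5 of complex I, read from 12.92 at E14 to 13.70 at P0.

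Of 10 carriers and channels of the mitochondrial membranes, 5 rose and 2 fell, while 25.2% of all genes tested rose and 21.9% fell. Both adenine nucleotide translocases, which exchange ADP for the ATP that ATP synthase makes, were among those called. Slc25a4 was 13.22 at E11, 13.46 at E12, 13.72 at E13, 13.68 at E14, 13.91 at E15, 14.31 at E16, 14.09 at E17, 13.98 at E18 and 14.08 at P0, and rose by 0.106 ± 0.0223 per day (SE; limma adjusted p = 0.0033). Slc25a5 was 14.32 at E11, 14.13 at E12, 14.04 at E13, 13.79 at E14, 13.84 at E15, 13.78 at E16, 13.38 at E17, 13.72 at E18 and 13.63 at P0, and fell with a slope of -0.0892 ± 0.0184 (adjusted p = 0.003). The earliest 3 arrays were the highest for Slc25a5 and, but for E14, the lowest for Slc25a4. With E13 to P0 alone neither Slc25a4 (slope 0.0659, limma adjusted p = 0.136) nor Slc25a5 (-0.0661, 0.106) was called. The aspartate-glutamate carriers were called in opposite directions as well: Slc25a12 rose (0.0790, adjusted p = 0.0228) and Slc25a13 fell from 8.45 at E11 to 5.31 at P0 (slope -0.403, adjusted p = 0.000614). Vdac1 and Vdac3, pores of the outer membrane, and Atpif1, the inhibitor of ATP synthase running backwards, rose with slopes of 0.104, 0.0501 and 0.0701. The call of Vdac3 was lost without E11, E12, E13, E17 or P0 (adjusted p = 0.0507 to 0.0811), that of Atpif1 without E11 (0.104) or E12 (0.0695) and that of Slc25a12 without E12 (0.0685) or P0 (0.124). With the mean of the passing probe sets Atpif1 (0.872) and Slc25a12 (0.123) were not called.

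Of 15 regulators of mitochondrial genes, 4 rose and 7 fell, while 25.2% of all genes tested rose and 21.9% fell. The 4 were Ppargc1a and Ppargc1b, coactivators of mitochondrial biogenesis, and the nuclear receptors Esrrg and Esrra that they bind. Ppargc1a was 8.42 at E11, 7.86 at E12, 8.58 at E13, 9.12 at E14, 9.16 at E15, 9.73 at E16, 9.71 at E17, 9.78 at E18 and 10.06 at P0, with a slope of 0.253 ± 0.0338 (SE; limma adjusted p = 0.000253). Esrrg went from 3.44 at E11 to 6.56 at P0 (slope 0.390), Ppargc1b from 4.06 to 6.70 (0.385) and Esrra from 7.48 to 8.09 (0.0793). Esrrg read below a log2 level of 5 from E11 to E13 (3.44 to 4.98), and Ppargc1b from E11 to E14 (3.84 to 4.92). Both passed the filter only through later arrays, so their slopes rest in part on readings under the filter level. The 7 that fell were Gabpb1 (-0.172), Tfb1m (-0.170), Gabpb2 (-0.144), Pprc1 (-0.128), Nrf1 (-0.116), Tfam (-0.0805) and Yy1 (-0.0569). Ppargc1a, Ppargc1b, Esrrg and Gabpb1 were called under all 20 settings, and the others were not. Single arrays ended the calls of Nrf1 (without E11, E12, E14, E16, E17 or E18, adjusted p = 0.0521 to 0.118), Tfam (without E11, E17, E18 or P0, 0.0545 to 0.174), Esrra (without E11, E12, E17 or P0, 0.051 to 0.073), Yy1 (without E12 or P0, 0.0547 and 0.0871) and Pprc1 (without E12, 0.0537). With the mean of the passing probe sets those of Esrra (0.557), Tfam (0.298) and Yy1 (0.111) were lost. Gabpa, the third GABP gene listed, was not called (slope -0.0297, limma adjusted p = 0.386, and 0.0182 with the mean of the passing probe sets). Nrf1 and the GABP subunits are classical activators of respiratory genes, and Tfam packages and transcribes mitochondrial DNA. Of the subunits that rose, 19 had a window. The ERRA letters were found for 0 of these (1.1% of all tested genes with a window). The NRF1 letters were found for 2 (10.5% against 5.4%) and the GABP letters for 4 (21.1% against 16.0%). The YY1 letters were found for 0 (2.5% of the tested genes). The NF-Y letters were found for 10 (52.6% against 40.8%) and the Sp1 letters for 9 (47.4% against 66.2%). These differences were not tested.

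**Figure D5:**
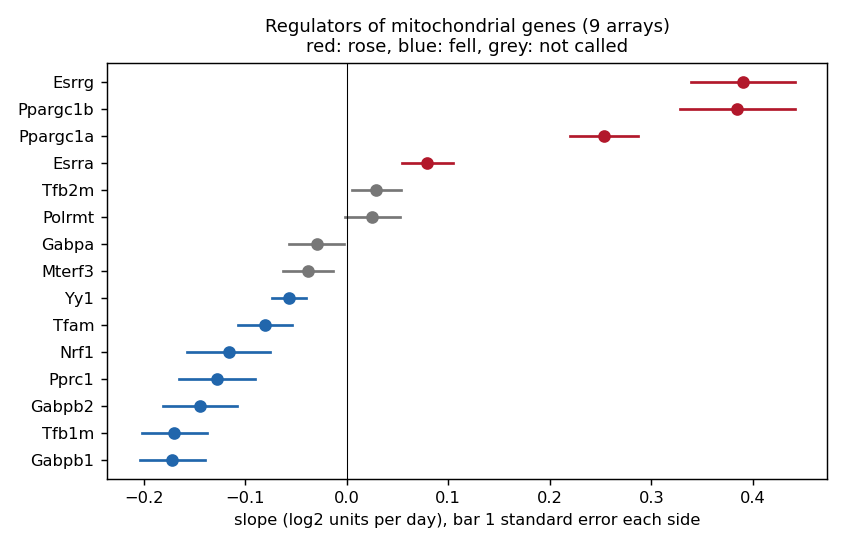
Slope with age of 15 regulators of mitochondrial genes in log2 units per day, with 1 standard error to each side, over 9 arrays. Esrrg, Ppargc1b and Ppargc1a rose most, at 0.390, 0.385 and 0.253, and 7 genes from Yy1 down to Gabpb1 fell. The early readings of Esrrg and Ppargc1b were below a log2 level of 5.

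The cell makeup of the bulb changed greatly over the same ages, by the markers. The counts that follow stand beside 25.2% of all genes tested that rose and 21.9% that fell. Of 9 genes of maturing neurons and synapses 8 rose, with a summed log2 level from 12.49 at E11 to 14.84 at P0, and 7 of 7 genes of the GABAergic interneuron lineage rose. All 6 tested genes of cycling progenitors fell, from 14.81 to 11.80. Of 4 red cell genes 3 fell, from 16.23 to 7.17. All 5 genes of the meninges rose, between 6.93 and 14.35, as did 4 of 4 tested microglial genes (8.07 to 10.91) and 4 of 4 tested genes of olfactory ensheathing cells (14.46 to 15.54). Of 6 mitral and tufted cell markers 4 rose, and their summed level was between 12.96 and 15.25. Tbr1 of this list fell, from 11.57 at E11 to 10.29 at P0 (limma adjusted p = 0.0061), and Eomes was not called (0.416). The endothelium, with 2 of 4 tested genes rising, was between 9.27 and 11.25. Pericyte markers ran from 10.20 to 12.65. Of the 4 olfactory sensory neuron markers Omp, Cnga2 and Gng8 missed the filter, and Gnal, which other neurons use too, rose from 3.73 at E11 to 8.77 at P0; the summed level of the 4 ran from 4.68 to 8.81. Gnal read below a log2 level of 5 at E11, as did Tbx21 (2.40) and Slc17a7 (4.46) of the mitral and tufted cell list. These genes passed the filter through later arrays, so their slopes rest in part on readings under the filter level. The brown fat markers Ucp1, Cidea and Elovl3 all missed the filter. Of 8 tested hypoxia genes 1 rose and 1 fell. The part of these cell types in the slopes of the subunits was not tested. In bulk tissue, fewer cells of a type and less RNA per cell cannot be told apart.

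The calls were also counted by the level of the probe set. Of the 20 subunits with a mean log2 level of 13 or more, 10 rose, and 22.8% of all 298 genes in that range did. Of 36 subunits between 11 and 13, 11 rose (20.9% of all genes), and of 12 below 11, 1 rose (25.9%). The median slope of the subunits was 0.0460, 0.0352 and 0.0474 in the 3 ranges, so it did not climb with the level.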

How the data were processed

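The authors deposited a log2 level for each probe set, made with GCRMA, per the submitters' processing notes. GCRMA subtracts a background estimated from the probe's bases and puts the arrays on a common scale; its version is not given in the sources used here. The log2 scale was inferred from the values. The array held 45101 probe sets, of which 34945 paired with 1 symbol in the platform annotation. Probe sets with several symbols were left out of tests. The 9 arrays, 1 an age, limit the precision, and the spread measured is that between arrays, which may be technical.

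Slopes on age were fitted with limma 3.58.1 in R 4.3.3 (trend on the mean level, two-sided, Benjamini-Hochberg over 10864 genes, threshold 0.05) and the script was tested on simulated data. Of the probe sets used for the 84 genes, 22 end in _s_at or _x_at and can read related sequences. Values on every array are given for the 3 steepest called members of a complex in each direction, all isoform family members, and the highest-mean member of each complex; Ndufa1, Atp5b, the regulators and the carriers were given more values after they were seen. The members and lists were chosen with earlier results of these data known. Alternatives covered the age of P0, filters, probe set choice, scaling, embryo sex (read from the arrays), E13 to P0 alone, each array left out, and a rank correlation.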

Additional observations from a re-analysis of the deposited data

Results flagged for a closer look

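Signal was found in probe sets that pair with more than 1 symbol and were left out of the comparisons. Of 11 such probe sets for genes of this family, 7 passed the filter. Their mean log2 levels were 10.68 (Ndufs5 and Ndufs5-ps), 11.82 and 9.91 (2 probe sets of Ndufb4b, Ndufb4c and Ndufb4), 10.12 (Ndufa11b and Ndufa11), 12.37 (Ndufs6b and Ndufs6), 11.51 (Ndufab1-ps and Ndufab1) and 10.02 (Gm29733 and Cox14). Their slopes, with no test, were 0.0498, 0.0367, 0.0260, 0.0517, 0.000185, 0.0128 and 0.0167 log2 units per day in the same order. Ndufb4, which missed the filter on its own probe set, thus has signal on probe sets it shares with near copies, and which gene gives that signal was not tested.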

How the results depend on the processing

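Of the 25 members called, 4 (Ndufa1, Cox5b, Uqcrh and Ndufaf2) had the same call with E13 to P0 alone, 10 without the E12, E14 and E17 arrays (chosen after seeing the data), 12 with median centring and 12 with the exact rank correlation. Of 31 called genes of the pathway lists, 6 had the same call under all 20 settings chosen at the start, and 24 lost it with E13 to P0 alone. The subunits rising numbered 9 with median centring, 3 with E13 to P0 alone, 9 without those 3 arrays, 12 by rank correlation and 11 to 25 when 1 array was left out; the falling numbered 1 with median centring. Assembly factors rising numbered 1 with quantile normalisation and by rank, and 0 to 1 with 1 array left out; those falling numbered 1 with E13 to P0 alone, 1 without the 3 arrays and 1 to 3 with 1 array left out. Over all genes 1525 rose and 1219 fell with E13 to P0 alone, and 1757 rose without the 3 arrays. The slope of Atp5c1 turned to -0.0103 with the mean of probe sets and -0.0824 without _x_at and _s_at probe sets. The isoform slopes with E13 to P0 alone were 0.130 (Atp5g1 minus Atp5g2), 0.0986 (Atp5g1 minus Atp5g3) and -0.0318 (Atp5g2 minus Atp5g3), adjusted exact permutation p = 0.269 for each; with 1 array left out they ran from 0.164 to 0.211, from 0.0978 to 0.125 and from -0.101 to -0.0468. That of Cox7a2 minus Cox7a2l was 0.0720 with the mean of probe sets and ran from 0.0490 to 0.0615. E13 to P0 alone has fewer arrays; other causes were not tested. No paired analysis was possible because each age has 1 array.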
